A study of Mus musculus with 8 samples.

Results

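Neurons pass signals at synapses, and the genes described here encode the parts of that machinery that release transmitter, receive it and hold the receptors in place. A list of 30 mouse genes was taken, covering synaptic vesicle and release proteins, active zone proteins, transmitter receptors and postsynaptic scaffolds, and each gene was read from the probe set of its own symbol with the highest mean signal over the 8 arrays. Of the 30 genes, 26 had such a probe set, among 12393 genes with one in all. Slc17a7, Sv2b, Rims1 and Grin1 had none and were not analysed here. The signal of 21 of the 26 passed a filter on low values and could be tested. The other 5, Bsn, Grin2a, Glra1, Homer1 and Camk2a, did not pass it.

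The arrays measured total RNA of mouse eyes, which the labels say was extracted by Trizol followed by an RNeasy clean-up. There were 4 groups of 2 arrays, numbered I and II: wild type at 5 days, KPAW at 5 days, wild type at 1 month and KPAW at 1 month. The wild type at 5 days was C57Bl6, and the strain of the other groups, the meaning of KPAW, its genotype and the sex of the animals are not given in the labels. Nothing in the labels says whether 2 arrays of a group came from separate animals, so every p-value measures only the spread between these arrays. In wild type at 1 month that spread may be technical. Wild type I and II at 5 days differed in Krt1 (1.47 and 0.124) and in the summed signal of 8 keratinizing epithelium genes (5.72 and 1.43). The KPAW arrays I and II differed in Xist at 5 days (0.0821 and 3.13) and in summed rod signal at 1 month (2.49 and 37.8). The arrays of these groups were thus not repeats of the same RNA, and such differences enter the shared error. The values are probe set signals relative to the control probe sets of the same array, whose median was 1. Scaled signals are those values after each array was brought to the same trimmed mean. The number of arrays limits the precision.

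A vesicle fuses with the nerve terminal when synaptobrevin on the vesicle (encoded by Vamp1 and Vamp2) zips together with syntaxin 1 (Stx1a) and SNAP-25 (Snap25) on the plasma membrane. Synaptotagmin 1 (Syt1) triggers fusion on calcium entry, complexins (Cplx1, Cplx2) control the assembled complex, and Rab3a and the synapsins (Syn1, Syn2) manage the vesicle pool. In the retina, photoreceptors and bipolar cells release glutamate at ribbon synapses, while amacrine and ganglion cells use conventional synapses. Photoreceptor terminals are rich in PSD-95 (Dlg4) and synaptophysin (Syp), lack synapsins, and use syntaxin 3 and the complexins Cplx3 and Cplx4. Most synapses of the mouse retina form after birth.

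Some facts of the whole data set bear on these genes. Replicate arrays correlated across probe sets at 0.927 in KPAW at 1 month and at 0.946 to 0.969 in the other 3 groups. KPAW I at 1 month stood apart in rod genes: the summed scaled signal of 13 rod marker genes was 2.49 there, while the other arrays of 1 month stood at 37.8 (KPAW II), 34.5 and 45.8 (wild type I and II), and 8.62 to 10.1 on the 4 arrays of 5 days. Sex-linked RNA also differed. Xist had a scaled signal of 2.95 to 3.64 on the 5-day arrays other than KPAW I, of 0.0821 on that array and of 0.0523 to 0.0861 on the 4 arrays of 1 month. Eif2s3y, a Y-linked gene, ran the other way, at 0.0923 to 0.149 on the arrays with low Xist and at 0.00901 to 0.0126 on the other 3. In wild type both 5-day arrays had high Xist and both 1-month arrays low Xist, so age and this difference cannot be told apart there. Where a KPAW count of list genes called with age changes without KPAW I at 1 month, this is said. The new count is not given, because that run leaves 1 array in the group and has no share of all genes beside it.

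Between 5 days and 1 month in wild-type eyes, 8 of the 21 members tested rose and 1 fell at an adjusted p under 0.05 (limma, Benjamini-Hochberg over 15838 probe sets). In the same comparison 8.72% of 9491 genes rose and 10.2% fell. The 8 that rose were Vamp1, Syt1, Cplx1, Vamp2, Glrb, Rab3a, Sv2a and Snap25, and the gene that fell was Stx1a. By role, 7 of 12 vesicle and release genes rose and 1 fell, 1 of 5 receptor genes rose, and none of the 3 scaffold and kinase genes or the 1 active zone gene was called. Leaving out any 1 of the 4 wild-type arrays left 2 or 3 members higher. The median log2 fold change was 0.38 over the 21 members and -0.01 over all genes tested. In 14 members both arrays of 1 month lay above both arrays of 5 days, and in 2 they lay below, against 32.5% and 34.2% of all genes. In RNA of an eye, more cells of a type and more RNA per cell cannot be told apart.

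**Figure D1:**
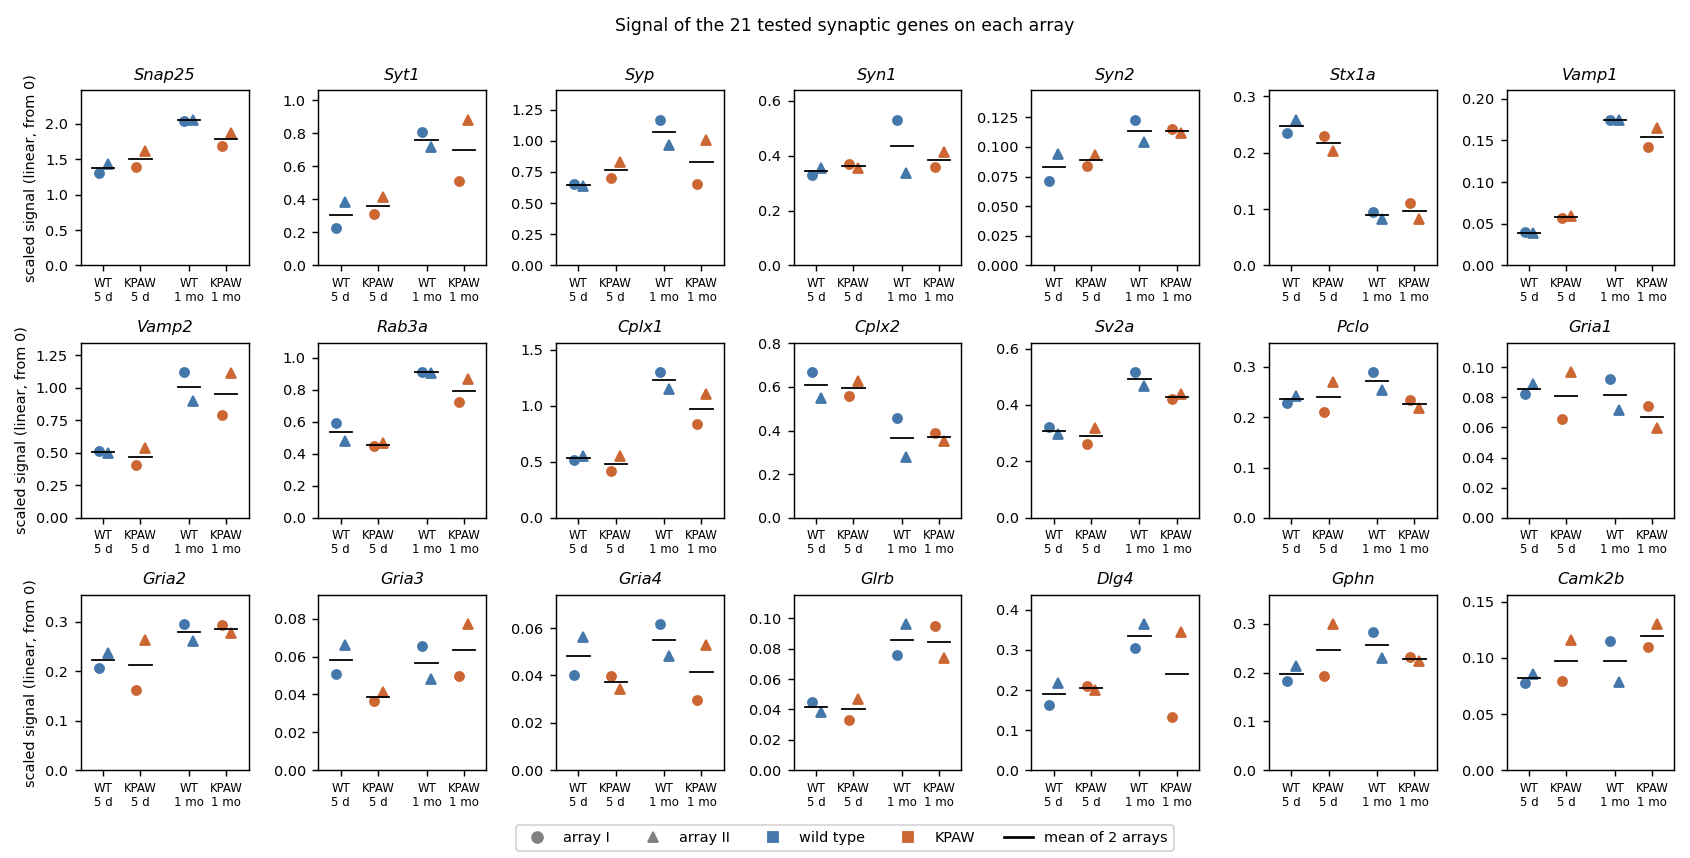
Scaled signal (linear axis from 0) of the 21 tested synaptic genes on each of the 8 arrays, with circles for array I, triangles for array II and bars for the mean of 2 arrays. Vamp1, Cplx1 and Vamp2 were higher at 1 month than at 5 days on all arrays of both kinds of eye, Stx1a was lower, and KPAW I at 1 month was low for Dlg4 and Syp.

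Vamp1, the synaptobrevin typical of motor and brainstem neurons and also made in the retina, had the strongest statistic of the members. Its scaled signal was 0.04 and 0.0388 in wild type I and II at 5 days and 0.175 and 0.174 at 1 month. In KPAW it was 0.0574 and 0.0597 at 5 days and 0.142 and 0.165 at 1 month. The ages did not overlap in either kind of eye. The log2 fold change with age was 1.70 (SE 0.15, adjusted p = 0.000672) in wild type and 1.13 (SE 0.15, adjusted p = 0.00368) in KPAW by limma, and both calls held under each alternative run. A second Vamp1 probe set did not pass the filter on low signal, with 0.0109 and 0.0126 in wild type at 5 days and 0.0503 and 0.0493 at 1 month.

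Vamp2, the main synaptobrevin of the brain, rose in both kinds of eye. Its scaled signal was 0.514 and 0.499 in wild type at 5 days, 1.12 and 0.895 at 1 month, 0.407 and 0.534 in KPAW at 5 days, and 0.788 and 1.11 at 1 month. All 4 arrays of 1 month lay above all 4 of 5 days. The log2 fold change was 0.95 (SE 0.21, adjusted p = 0.0185) in wild type and 0.97 (SE 0.21, adjusted p = 0.0209) in KPAW by limma.

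The membrane partners of synaptobrevin went in opposite directions. Snap25, which supplies a pair of helices to the fusion complex, read 1.31 and 1.43 in wild type at 5 days and 2.04 and 2.06 at 1 month, and 1.39 and 1.61 in KPAW at 5 days and 1.69 and 1.87 at 1 month. The rise in wild type was 0.57 (SE 0.13, adjusted p = 0.0238), and the difference in KPAW was 0.25 (SE 0.13, adjusted p = 0.256). Stx1a, the plasma membrane syntaxin of conventional synapses, fell from 0.235 and 0.259 to 0.0954 and 0.0823 in wild type and from 0.23 and 0.204 to 0.111 and 0.0819 in KPAW. For Stx1a every 5-day array stood above every 1-month array. Its log2 fold change was -1.29 (SE 0.17, adjusted p = 0.00297) in wild type and -1.03 (SE 0.17, adjusted p = 0.00869) in KPAW by limma. A second Stx1a probe set also fell, with -0.69 (adjusted p = 0.0327) in wild type and -0.90 (adjusted p = 0.0157) in KPAW.

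The windows of 250 bases before the start of Vamp1 and Stx1a, whose changes with age held most widely, and of Syp and Dlg4, the members with the lowest differences from wild type in KPAW I at 1 month, are shown 5′ to 3′ on the gene's strand. They are RefSeq sequences of GRCm38.p6, all on the plus strand, at chr6:125215331-125215580 for Vamp1, chr5:135023232-135023481 for Stx1a, chrX:7638330-7638579 for Syp and chr11:70016953-70017202 for the first of the 3 starts listed for Dlg4. Capitals mark matches to 4 short motifs, searched on both strands after the values were known: the CRE (TGACGTCA), the core of the site of the photoreceptor factor CRX (TAATCC), a GC box (GGGCGGGG) and one part of the RE1 site (TTCAGCACC).
Vamp1: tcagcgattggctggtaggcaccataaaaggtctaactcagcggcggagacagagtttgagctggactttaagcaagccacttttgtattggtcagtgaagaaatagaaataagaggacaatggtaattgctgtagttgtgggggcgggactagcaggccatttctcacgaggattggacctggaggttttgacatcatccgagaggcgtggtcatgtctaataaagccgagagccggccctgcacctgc
Stx1a: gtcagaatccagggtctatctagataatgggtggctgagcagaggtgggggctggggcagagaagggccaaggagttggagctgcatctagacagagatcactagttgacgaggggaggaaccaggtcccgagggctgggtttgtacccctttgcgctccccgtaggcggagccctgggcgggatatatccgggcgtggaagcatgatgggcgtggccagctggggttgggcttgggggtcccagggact
Syp: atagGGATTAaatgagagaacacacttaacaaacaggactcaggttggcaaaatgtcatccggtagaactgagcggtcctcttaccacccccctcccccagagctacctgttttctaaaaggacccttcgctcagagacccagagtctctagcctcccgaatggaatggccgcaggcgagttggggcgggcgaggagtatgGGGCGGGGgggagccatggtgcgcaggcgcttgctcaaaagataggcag
Dlg4: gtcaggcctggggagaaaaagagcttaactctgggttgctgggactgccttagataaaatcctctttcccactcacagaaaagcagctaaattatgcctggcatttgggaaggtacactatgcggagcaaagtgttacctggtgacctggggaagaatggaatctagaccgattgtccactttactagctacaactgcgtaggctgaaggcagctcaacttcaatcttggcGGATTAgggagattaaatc
The CRX core was found before Syp, starting 246 bases from the start of the gene, and before Dlg4, starting 19 bases from it. Both matches read GGATTA, the reverse strand of TAATCC. For Dlg4 this was the window of the first start only, and the windows of its other starts held none of these motifs. Among the 19 members on the array with a window in the RefSeq table, Dlg4 and Syp were those with this core, and 6.25% of all 32851 windows held it. A member was counted if any of its windows matched, while the percentages here count single windows, so they are not the same measure. The GC box was in the windows of 5 of the 19 members, Syp among them, and in 16.1% of all windows. The CRE and the RE1 letters were each found before 1 of the 19, Syn1, and in 1.55% and 0.301% of all windows. The Vamp1 and Stx1a windows held none of these letters, which says only that they are not in this stretch.

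The complexins did not move together. Cplx1 rose from 0.516 and 0.549 to 1.3 and 1.15 in wild type and from 0.415 and 0.55 to 0.839 and 1.1 in KPAW. The log2 fold change was 1.17 (SE 0.19, adjusted p = 0.00593) and 0.98 (SE 0.19, adjusted p = 0.0138) by limma, with no overlap of the ages. Cplx2 was lower at 1 month on every array without passing the threshold, at 0.669 and 0.551 against 0.458 and 0.277 in wild type and at 0.558 and 0.629 against 0.391 and 0.354 in KPAW. Its differences were -0.73 (SE 0.23, adjusted p = 0.0586) and -0.64 (SE 0.23, adjusted p = 0.0972). Of the other Cplx1 probe sets, 1 rose in wild type by 0.94 (adjusted p = 0.00795) and 1 differed by 0.45 (adjusted p = 0.132). In KPAW they differed by 0.40 (adjusted p = 0.139) and 0.54 (adjusted p = 0.0936).

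Further release genes rose or stayed below the threshold. Syt1, the calcium sensor, read 0.23 and 0.387 in wild type at 5 days and 0.809 and 0.717 at 1 month, and 0.312 and 0.414 in KPAW at 5 days and 0.51 and 0.884 at 1 month. Its rise in wild type was 1.29 (SE 0.31, adjusted p = 0.0244), and in KPAW the difference was 0.86 (SE 0.31, adjusted p = 0.0991), with KPAW I much lower than KPAW II. Rab3a, the small GTPase of docked vesicles, went from 0.59 and 0.477 to 0.91 and 0.906 in wild type and from 0.446 and 0.465 to 0.721 and 0.863 in KPAW. The ages did not overlap for Rab3a, whose rises were 0.75 (SE 0.15, adjusted p = 0.0143) and 0.77 (SE 0.15, adjusted p = 0.0162). Sv2a, a vesicle membrane glycoprotein, rose from 0.321 and 0.298 to 0.517 and 0.467 and from 0.262 and 0.317 to 0.42 and 0.439, by 0.63 (SE 0.14, adjusted p = 0.0211) and 0.54 (SE 0.14, adjusted p = 0.0418). The Sv2a call in KPAW was lost in 13 of 20 alternatives, each array left out among them, and that in wild type in 4 of 20. Syp, the most used marker of synaptic vesicles, read 0.651 and 0.638 in wild type at 5 days and 1.17 and 0.966 at 1 month. That difference of 0.70 (SE 0.21, adjusted p = 0.0543) lay just outside the threshold. In KPAW, Syp read 0.703 and 0.827 at 5 days and 0.654 and 1.01 at 1 month, so KPAW I at 1 month stood below both KPAW arrays of 5 days. The synapsins, which tether vesicles at conventional terminals, did not pass: Syn1 differed by 0.29 in wild type and 0.08 in KPAW, and Syn2 by 0.38 and 0.30, with adjusted p from 0.17 to 0.828.

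Of the 5 receptor genes tested, 1 was called with age, in both kinds of eye. Glrb, the subunit that anchors glycine receptors to gephyrin, went from 0.0449 and 0.0383 to 0.0758 and 0.0961 in wild type and from 0.0334 and 0.0468 to 0.0952 and 0.0741 in KPAW. The ages did not overlap. Its rises of 0.77 (SE 0.21, adjusted p = 0.0401) and 0.79 (SE 0.21, adjusted p = 0.0427) by limma lay just inside the threshold, and its call was lost in 8 of 19 alternatives in wild type and in 13 of 19 in KPAW. Glra1, the ligand-binding partner of adult glycine receptors, was too dim to be tested, with 0.0118 and 0.0258 in wild type at 5 days, 0.0465 and 0.034 at 1 month, 0.0185 and 0.0222 in KPAW at 5 days and 0.036 and 0.0249 at 1 month.

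The AMPA receptor subunits, which carry fast excitation, did not pass in any comparison. Gria2, the subunit that makes these channels tight to calcium, read 0.207 and 0.237 in wild type at 5 days and 0.295 and 0.262 at 1 month, and 0.162 and 0.263 in KPAW at 5 days and 0.293 and 0.278 at 1 month. Both 1-month groups lay above their 5-day groups, by 0.30 (SE 0.21, adjusted p = 0.352) and 0.43 (SE 0.21, adjusted p = 0.216). The remaining subunits were dimmer and less regular. Gria1 read 0.0824 and 0.0887 in wild type at 5 days, 0.0919 and 0.0714 at 1 month, 0.0655 and 0.0968 in KPAW at 5 days, and 0.0745 and 0.0594 at 1 month. Gria3 read 0.0508 and 0.0659, 0.0654 and 0.0483, 0.0363 and 0.0414, and 0.0498 and 0.077 in the same order. Gria4 read 0.04 and 0.0561, 0.0616 and 0.0483, 0.0396 and 0.0345, and 0.0298 and 0.0529. In Gria1, Gria3 and Gria4 the ages overlapped in wild type. In KPAW both arrays of 1 month lay above both of 5 days for Gria3 (0.48, SE 0.23, adjusted p = 0.207). Grin2a, an NMDA receptor subunit, stayed between 0.0189 and 0.0341 on all 8 arrays and was not tested.

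Scaffolds and kinases gave no call in either age comparison. Dlg4, which encodes PSD-95, read 0.163 and 0.217 in wild type at 5 days and 0.306 and 0.364 at 1 month, and 0.211 and 0.2 in KPAW at 5 days and 0.132 and 0.346 at 1 month. The wild-type ages were separate, with a difference of 0.76 (SE 0.36, adjusted p = 0.18), while in KPAW one array of 1 month lay below and the other above the 5-day arrays (0.06, SE 0.36, adjusted p = 0.923). With either KPAW array of 1 month left out, Dlg4 passed in wild type. Gphn, the gephyrin scaffold of inhibitory synapses, read 0.182 and 0.214 in wild type at 5 days, 0.284 and 0.229 at 1 month, 0.194 and 0.299 in KPAW at 5 days, and 0.232 and 0.224 at 1 month. It differed by 0.34 in wild type (adjusted p = 0.296), and a second Gphn probe set rose there by 0.56 (adjusted p = 0.0486). Camk2b, a kinase subunit of the postsynaptic density, read 0.0777 and 0.086, 0.115 and 0.0789, 0.0793 and 0.116, and 0.11 and 0.13 in that order of groups, with differences of 0.18 and 0.26 that did not pass. Camk2a was listed at the lowest value of the table on all 8 arrays. Homer1 lay between 0.0163 and 0.0389.

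Of the active zone genes, Bsn was dim, at 0.0142 to 0.0521, and Pclo depended on the probe set. Pclo encodes piccolo, a giant protein of the release site and the ribbon. The probe set with the higher mean read 0.228 and 0.243 in wild type at 5 days and 0.29 and 0.254 at 1 month, a difference of 0.19 (adjusted p = 0.439), and -0.07 in KPAW (adjusted p = 0.817). The other Pclo probe set fell from 0.162 and 0.184 to 0.112 and 0.0971 in wild type and from 0.224 and 0.178 to 0.0507 and 0.0645 in KPAW, by -0.63 (adjusted p = 0.0442) and -1.49 (adjusted p = 0.00248) by limma. The probe sets of this gene thus gave different readings of the same RNA samples.

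KPAW eyes were compared between the ages in the same way. In KPAW, 6 members rose (Vamp1, Cplx1, Vamp2, Glrb, Rab3a and Sv2a) and Stx1a fell, where 7.7% of all genes rose and 7.48% fell. The median was 0.26 over the 21 members and -0.03 over all genes. In 11 members the 1-month arrays lay above the 5-day arrays, and in 2 below, against 27% and 31.6% of all genes. The 7 members called in KPAW were among the 9 called in wild type, but both comparisons take their error from one variance per gene over the 8 arrays, so these calls are not independent. Of the KPAW arrays, KPAW II at 5 days alone had high Xist. Without it, the KPAW arrays left all had low Xist, at 0.0821 at 5 days and 0.0861 and 0.0621 at 1 month. That run leaves 1 KPAW array at 5 days, so the spread of that group is not known. Over the runs with each array left out, the KPAW change stayed at 1.03 to 1.23 for Vamp1 and -1.21 to -0.85 for Stx1a. The part of sex in the KPAW changes with age was not tested. The 2 called in wild type alone were Snap25 and Syt1, and a difference between the kinds of eye was not shown for them: the change of the KPAW difference between the ages was -0.33 (SE 0.19, adjusted p = 0.809) for Snap25 and -0.43 (SE 0.43, adjusted p = 0.851) for Syt1.

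**Figure D2:**
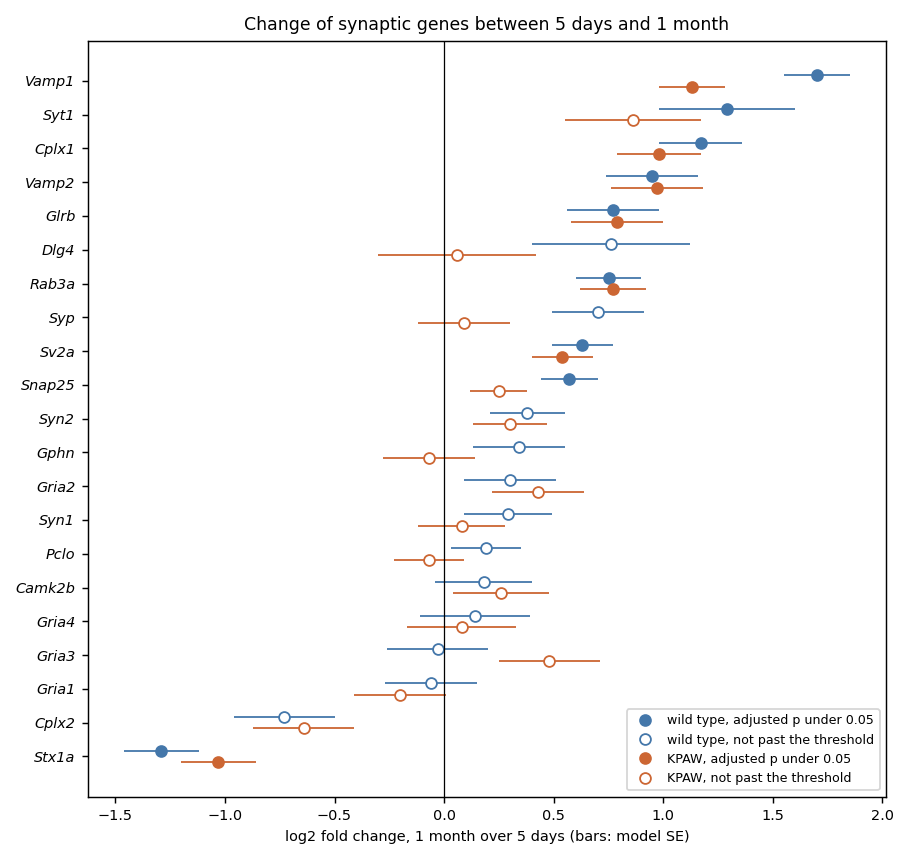
Log2 fold change from 5 days to 1 month of the 21 tested members in wild type and KPAW, with bars for the model's SE and filled points for an adjusted p under 0.05. Vamp1 had the largest rise at 1.70 in wild type and 1.13 in KPAW, Stx1a the largest fall at -1.29 and -1.03, and Dlg4 and Syp read 0.76 and 0.70 in wild type against 0.06 and 0.09 in KPAW.

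The counts depended on single arrays, since each group has only 2. In wild type, 2 members rose without wild type I at 5 days (Vamp1, Rab3a), 3 without wild type II at 5 days (Syt1, Vamp1, Cplx1), and 2 without wild type I or without wild type II at 1 month (Vamp1, Cplx1 each time), while 10 rose with either KPAW array of 1 month left out, Syp and Dlg4 being added. In KPAW, 1 rose without KPAW I at 5 days (Vamp1), 3 without KPAW II at 5 days (Vamp1, Vamp2, Cplx1), 3 without KPAW II at 1 month (Vamp1, Rab3a, Cplx1) and 5 without KPAW I at 1 month (Syt1, Vamp1, Vamp2, Rab3a, Cplx1). Cplx2 was also called lower without wild type I at 1 month in both kinds of eye, and in KPAW without wild type II at 1 month. With the arrays of a contrast fitted alone, Vamp1 was the 1 member that passed in KPAW. Vamp1 and, in wild type, Stx1a passed in every alternative fitted. Stx1a in KPAW passed in all but the fit of its groups alone (adjusted p = 0.0533).

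At 1 month no member differed between KPAW and wild type by limma (lowest adjusted p = 0.675), 0 of 21 had an unadjusted p under 0.05 (7.08% of all genes), and 0.0211% of all genes were called higher and 0.0105% lower. The median difference was -0.17 over the members and 0 over all genes. In 6 members, Snap25, Cplx1, Rab3a, Sv2a, Pclo and Vamp1, both KPAW arrays lay below both wild-type arrays, and in 0 members above, against 18.3% and 18.2% of all genes. The lowest moderated statistics among the members were those of Cplx1 (-0.34, SE 0.19), Syp (-0.38, SE 0.21), Dlg4 (-0.58, SE 0.36) and Snap25 (-0.20, SE 0.13). On the higher side Camk2b (0.27, SE 0.22), Stx1a (0.09), Gria3 (0.11) and Cplx2 (0.06) stood first, with adjusted p from 0.748 to 0.959.

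The KPAW arrays of 1 month were not alike. Against the wild-type mean, Dlg4 lay at -1.21 on the log2 scale in KPAW I and at 0.05 in KPAW II, Syp at -0.68 and -0.07, Syt1 at -0.56 and 0.21, and Cplx1 at -0.53 and -0.15. The median over the 21 members was -0.22 for KPAW I and -0.07 for KPAW II, and over all genes 0.02 and 0. In KPAW I, 11 members lay below both wild-type arrays and 1, Stx1a, above them, and in KPAW II 10 lay below and 3 above. Of all genes, 37.2% lay below and 39.4% above in KPAW I, and 32.9% and 29.7% in KPAW II. Without KPAW II, which leaves KPAW I alone in its group, assumed to vary like the other groups, Dlg4 was called lower (-1.21, adjusted p = 0.0261). Without KPAW I the Dlg4 difference was 0.05.

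**Figure D3:**
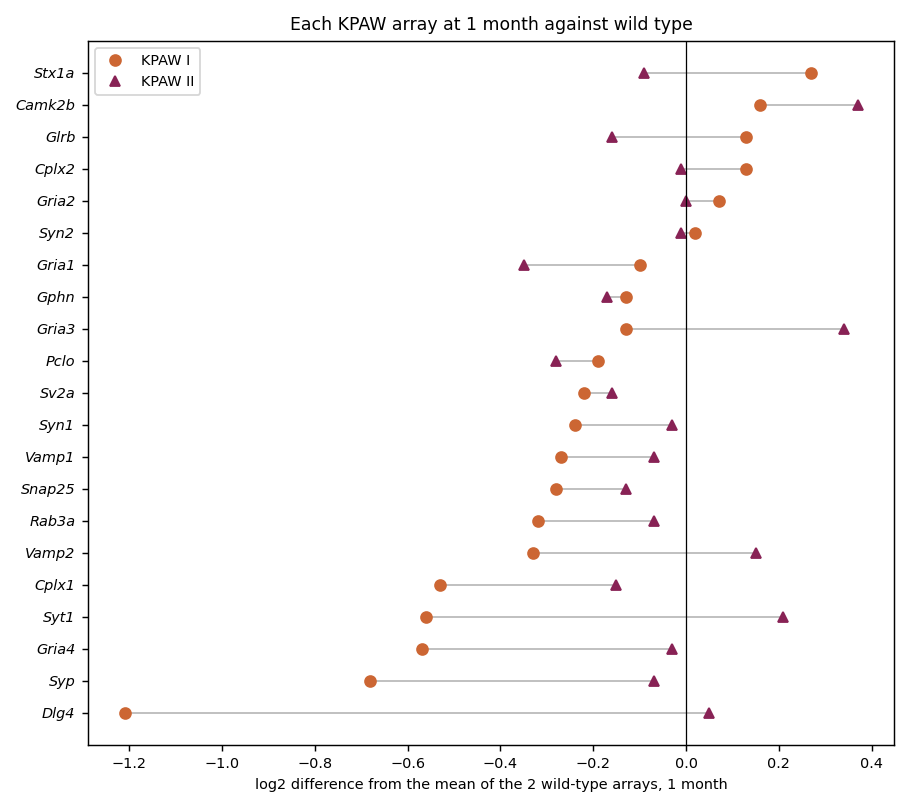
Log2 difference of each KPAW array at 1 month from the mean of the 2 wild-type arrays, for the 21 tested members in the order of KPAW I. KPAW I (circles) reached -1.21 for Dlg4, while KPAW II (triangles) stayed between -0.35 and 0.37 for all members.

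Further probe sets of members were low in KPAW I in part. A second Vamp2 probe set read 0.216 and 0.258 in wild type at 1 month, 0.115 in KPAW I and 0.287 in KPAW II. A second Syt1 probe set read 0.385 and 0.441 in wild type, 0.186 in KPAW I and 0.397 in KPAW II. The 2 further Dlg4 probe sets read 0.0342 and 0.0398 in KPAW I and at least 0.0663 on the other 3 arrays of 1 month. On each of these probe sets KPAW I was the lowest array of its age. Syp and Cplx1 had further probe sets that were not: the second Syp set read 0.0353 in KPAW I and 0.0129 in wild type II, and 1 of the Cplx1 sets read 0.195 in KPAW I and 0.181 and 0.182 in wild type.

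The rod genes moved with this array. Gnat1, the rod transducin subunit, read 0.0478 on array KPAW I, 7.18 on KPAW II, 5.99 and 7.09 in wild type at 1 month and 0.0614 to 0.0772 at 5 days. Nrl, the factor that sets rod identity, had 0.0243 on KPAW I, 4.2 on KPAW II and 3.89 and 4.73 on the wild-type arrays of that age, and 2.41 to 2.62 at 5 days. Summed over 8 cone genes the signal was 2.29 in KPAW I and 5.03 to 5.11 on the other arrays of 1 month. Bipolar genes (7 on the array) summed to 3.83 in KPAW I against 2.9 to 3.21 on the others, and amacrine and horizontal cell genes (11) to 4.16 against 3.84 to 4.22. Grm6 and Pou4f2 had no probe set of their own here. The part of rod and cone RNA in the low synaptic values of KPAW I was not tested.

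Members known from photoreceptor terminals, though not confined to them, and members of conventional terminals were also summed. The summed signal of Syp, Snap25, Vamp2, Dlg4, Bsn and Pclo was 3.51 in KPAW I, against 4.6 in KPAW II, 4.97 and 4.57 in wild type at 1 month, and 2.89 to 3.49 at 5 days. The summed signal of Syn1, Syn2, Stx1a, Cplx1 and Cplx2 was 1.81 in KPAW I, 2.06 in KPAW II, 2.51 and 1.95 in wild type, and 1.66 to 1.83 at 5 days. Both sums were lowest of their age in KPAW I, and Snap25 alone made 1.69 of the first sum there. The sums thus do not separate the kinds of synapse. Neither sum was tested, since the members were chosen with results known.

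Other genes of the synapse were taken from 6 lists. Of all genes, 8.72% rose and 10.2% fell with age in wild type, and 7.7% rose and 7.48% fell in KPAW. In lists this short, a count of 1 is not read as a change of the list. Among other vesicle and release genes, 6 of 24 tested rose in wild type and 5 rose in KPAW, and none fell in either. Without KPAW I at 1 month, the KPAW counts of rises and of falls both changed. Those called in wild type included Cplx4 (3.18, SE 0.82, adjusted p = 0.0341 in wild type), the dynamin Dnm1 (1.36), the endophilin Sh3gl2 (1.49) and Nsf, the ATPase that takes spent fusion complexes apart (1.24). In KPAW, Sh3gl2 rose by 1.5, Nsf by 1.12 and Dnm1 by 1.11, and Cplx4 differed by 1.30 (adjusted p = 0.326). Among other active zone and ribbon genes, 4 of 12 rose and 2 fell in wild type, against 0 and 1 in KPAW. That KPAW count of rises was larger without KPAW I at 1 month. The summed signal of the 13 genes of this list on the array was 2.76 and 2.85 in KPAW at 5 days. At 1 month it was 2.16 in KPAW I and 3.71 in KPAW II. Cabp4, a calcium-binding protein of the photoreceptor terminal, rose by 3.65 (SE 0.90, adjusted p = 0.0289) in wild type, and the ribbon calcium channel gene Cacna1f by 1.57, the active zone gene Rims2 by 1.49 and Lin7b by 0.99. The size for Cabp4 rests on 5-day signals below the pseudocount.

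Receptor genes outside the members were called in both directions. Of all genes, 8.72% rose and 10.2% fell in wild type, and 7.7% and 7.48% in KPAW. Of 7 other GABA and glycine receptor genes, 2 rose in each kind of eye, Gabrr1 by 3.06 and 3.19 and Gabrr2 by 1.97 and 2.18 in wild type and KPAW. Gabrr1 read 0.0109 to 0.0274 at 5 days, mostly below the pseudocount, and 0.282 to 0.336 at 1 month, so the size of its rise rests on that pseudocount. These encode subunits of the GABA receptors of bipolar cells. Of 6 other glutamate receptor genes, 1 fell in each, Cacng4, an AMPA receptor auxiliary subunit, by -2.13 (SE 0.18, adjusted p = 0.00053) in wild type and -1.04 (SE 0.18, adjusted p = 0.00995) in KPAW. Of 8 transmitter handling genes, 1 rose in each, Gad1, which makes GABA, by 0.96 and 0.80. Its call in KPAW was lost without KPAW I at 1 month. Of 12 other scaffold, adhesion and kinase genes, 3 rose and 1 fell in wild type, and 1 rose in KPAW. Camk2d (1.47), Homer2 (1.35), Dlg1 (0.79) and Dlgap4 (-0.60) were those called in wild type, and Dlg1 (0.56) was the one called in KPAW.

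At 1 month none of the genes in these 6 lists passed between KPAW and wild type. The 2 largest differences of each list were in Cabp4 (-1.97), Cplx4 (-1.63), Stx3 (-1.12), Rims2 (-0.77), Cacng4 (0.77), Camk2d (-0.74), Homer2 (-0.74), Slc1a2 (-0.71), Grm8 (-0.50), Slc17a6 (-0.43), Gabrd (-0.15) and Gabrr2 (0.10), in order of size over all lists, with adjusted p from 0.487 to 0.911. KPAW I and II differed in several of these. Cplx4 had 0.0716 on KPAW I, 0.857 on KPAW II and 0.896 and 0.833 on the wild-type arrays. Stx3, the syntaxin of ribbon synapses, read 0.395 and 1.14, against 1.49 and 1.5. Cabp4 was at the lowest listed value in KPAW I and read 0.341 in KPAW II, against 0.363 and 0.433. Cplx3, in contrast, had 0.844 and 0.846 on KPAW I and II beside 0.958 and 0.945, so KPAW I did not stand apart from KPAW II in this gene.

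**Figure D4:**
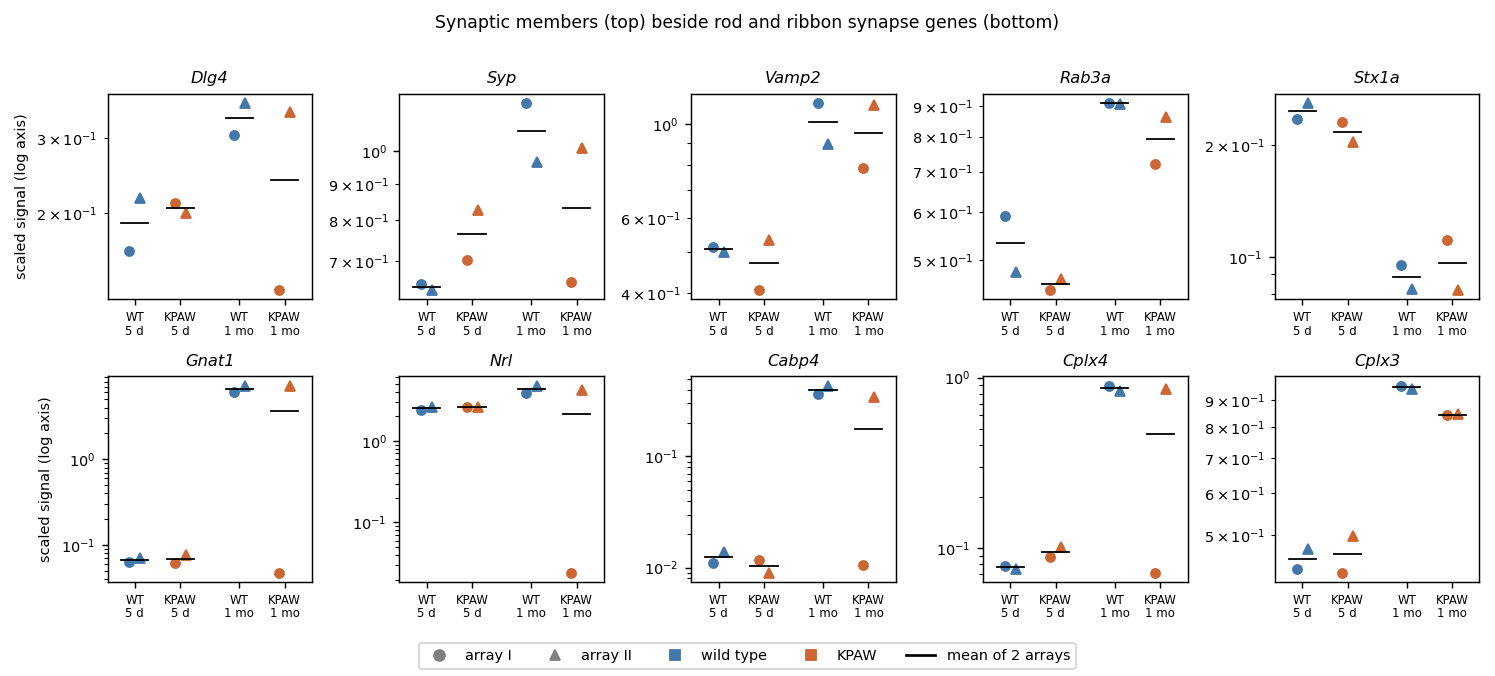
Scaled signal (log axis, a range of its own in each panel) of 5 members above and of 5 rod or ribbon synapse genes below, chosen after their values were seen, on the 8 arrays, with circles for array I, triangles for array II and bars for the mean of 2 arrays. KPAW I at 1 month lay at the level of the 5-day arrays or below it for Gnat1 (0.0478), Nrl, Cabp4, Cplx4 (0.0716) and Dlg4 (0.132). It lay above every 5-day array for Rab3a (0.721 against 0.446 to 0.59) and Cplx3 (0.844 against 0.425 to 0.498).

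At 5 days no member passed between KPAW and wild type by limma (lowest adjusted p = 1), where 0% of all genes were called in either direction, and 1 member, Vamp1, had an unadjusted p under 0.05 (2.22% of all genes). The largest statistics were those of Vamp1 (0.40, SE 0.15), Gphn (0.26), Syp (0.24) and Snap25 (0.12) among higher values, and of Gria3 (-0.40, SE 0.23), Rab3a (-0.21), Stx1a (-0.17) and Gria4 (-0.24) among lower ones. In 2 members, Vamp1 and Syp, the KPAW arrays were both higher than either wild-type array, and in 4, Rab3a, Stx1a, Gria3 and Gria4, both lower, against 14.9% and 18.8% of all genes. The median difference was -0.03 over the members and -0.01 over all genes. KPAW I had 11 members below both wild-type arrays and 3 above (38.4% and 32.1% of all genes), while KPAW II had 4 below and 12 above (36.1% and 35%). KPAW I was also the 5-day array without Xist signal, and 8 genes of keratinizing epithelium summed to 9.88 there, against 5.72 and 1.43 in wild type I and II and 0.959 in KPAW II. Krt14 was highest in KPAW I (3.69 against 0.169 to 0.363), and Krt1 in wild type I (1.47 against 0.835 in KPAW I). The part of sex and of surface tissue in the member values was not tested.

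The differences between KPAW and wild type at 1 month use the same wild-type arrays as the wild-type comparison of ages. The change of the KPAW difference between the ages was not called for any member or for any of the 9491 genes by limma (0%), with an unadjusted p under 0.05 in 1 member, Vamp1 (5.82% of all genes). Without KPAW I at 1 month 0 members were called. The largest statistics were those of Vamp1 (-0.57, SE 0.21), Syp (-0.61, SE 0.30), Snap25 (-0.33) and Gphn (-0.41) on the lower side and of Gria3 (0.51), Stx1a (0.26), Gria2 (0.12) and Cplx2 (0.09) on the higher side, with adjusted p from 0.809 to 0.957.

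Cell type markers were also counted with age. Of all genes, 8.72% were called higher and 10.2% lower in wild type, and 7.7% and 7.48% in KPAW. In lists this short, a count of 1 is not read as a change of the cell type. Of 12 rod genes tested, 1 was called higher in wild type (median 2.38) and 0 in KPAW (median 0.04). In wild type the summed rod signal was 8.93 and 10.1 at 5 days and 34.5 and 45.8 at 1 month. In KPAW it was 9.08 and 8.62 at 5 days, and 2.49 (KPAW I) and 37.8 (KPAW II) at 1 month. Each gene has 1 variance over the 8 arrays, so low rod values in KPAW I at 1 month also widened the wild-type error. For Gnat1 the wild-type change was 6.22 with an SE of 1.69. The wild-type count thus understates the rise of rod signal. Of 8 cone genes 4 rose in each kind of eye, and of 7 bipolar genes 3 rose and 1 fell in wild type and 4 rose in KPAW. Without KPAW I at 1 month the KPAW counts of rises were larger for rod, cone and bipolar genes. Of 9 amacrine and horizontal genes 2 rose in each, and their KPAW counts also changed without that array. Ganglion cell genes went both ways, with 1 of 9 higher and 2 lower in wild type and 2 and 2 in KPAW. The KPAW count of higher ones changed without KPAW I at 1 month. Their summed signal was 4.03 to 5.22 at 5 days and 3.33 to 3.89 at 1 month. Mueller glia genes (8) had 4 higher and 1 lower in wild type and 3 and 1 in KPAW, and myelin genes (4) had 1 lower in each. Muscle and neuromuscular junction genes (8) had 1 higher and 1 lower in wild type and 2 higher in KPAW, where the count of lower ones changed without KPAW I at 1 month. Their summed signal was 2.17 to 3.67 at 5 days and 1.96 to 3.21 at 1 month, with Ckm at 0.352 to 0.401 at 1 month. Keratinizing epithelium genes (8) had 1 higher in each, and their signal summed to 28.3 and 15.2 in KPAW at 1 month against 5.53 and 5.49 in wild type. The part of changing cell numbers in the rise of the synaptic genes was not tested.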

How the data were processed

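Labelled RNA of 8 mouse eye samples was hybridized to oligonucleotide arrays, and the deposited table gives 1 linear intensity (signal) per probe set and array. The software, summarisation and scaling behind it are not given in the sources used here. In the deposited values the control probe sets (64) had a median of 1 on each array, the lowest value was 0.01, and 10% to 14.9% of values per array stood there.

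Controls were left out. Array means without the top and bottom 2% of values (0.142 to 0.253 as deposited) were made equal by scaling. Tests used log2(signal + 0.0211), a pseudocount at the 20th percentile of scaled signals. Fold changes are on that scale and understate changes of dim genes. Probe sets with a mean above the 30th percentile (0.0406) were kept, 15838 of 22626. Of the 22626, 20380 had 1 gene symbol in the platform table, 691 several and 1555 none, and only those with 1 were named.

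A limma model (3.58.1, R 4.3.3) with a mean for each of 4 groups and a variance trend had 4 residual degrees of freedom, and p-values were Benjamini-Hochberg adjusted over all probe sets kept. Its code was tested on simulated data. An exact permutation test of 2 arrays against 2 cannot pass, so none was used. Background percentages are over 9491 genes with 1 probe set each. Figures used Python 3.11.15, pandas 2.3.3 and matplotlib 3.10.9. Members and lists were chosen with earlier results of these data known. All members are accounted for. Values per array are given for members called, for the largest statistics of the other comparisons (4 a direction) and for isoform and subunit families, and genes of other lists are named by size of change (up to 4 called a list with age, 2 at 1 month). Alternatives covered scaling, pseudocount, filter, variance trend, array weights, replicate block, groups alone, probe set choice, a minimum change of 2-fold, and each array left out in turn.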

Additional observations from a re-analysis of the deposited data

Results flagged for a closer look

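Vamp1 stood above wild type on both KPAW arrays at 5 days (0.0574 and 0.0597 against 0.04 and 0.0388) and below it on both at 1 month (0.142 and 0.165 against 0.175 and 0.174), so at this probe set the KPAW difference had opposite signs at the 2 ages. Of all genes, 14.9% were higher on both KPAW arrays at 5 days and 18.3% lower on both at 1 month. The share with both is not given. At the second, dim Vamp1 probe set the kinds of eye overlapped at both ages. It read 0.0171 and 0.00901 in KPAW against 0.0109 and 0.0126 at 5 days, and 0.0456 and 0.0511 against 0.0503 and 0.0493 at 1 month. The change of the difference was -0.57 on the log2 scale (SE 0.21) and did not pass in limma (unadjusted p = 0.0294, adjusted p = 0.809).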

How the results depend on the processing

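Of the alternatives other than leaving out an array, 742 single-gene values kept direction and side of the threshold, 14 passed newly, 22 no longer passed and 25 changed sign. Counts of members called that moved by over 1.5 times were these. Members lower in wild type with age numbered 2 with median scaling, array weights or a replicate block (Cplx2 added). Members higher in KPAW with age numbered 3 on values as deposited and 1 with the groups of the contrast alone, where 0 were lower, and 2 were lower with probe sets averaged (Pclo added). A 2-fold minimum left 3 higher in wild type and 1 in KPAW. Leaving out each array gave 2 to 10 higher and 1 to 2 lower in wild type, 1 to 5 higher and 1 to 2 lower in KPAW, and 0 to 1 lower for KPAW against wild type at 1 month.

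The replicate block used the numerals I and II. The labels do not say that I and II pair arrays, so the numerals were not taken as pairs in the main fit. Differences between I and II correlated from -0.0174 to 0.309 between groups, with the highest value between wild type and KPAW at 5 days. With the block Glrb was lost in both kinds of eye and Sv2a in KPAW, while Syt1 was gained in KPAW.

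Values as deposited moved the median of all probe sets by 0.44 with age in wild type, -0.26 for KPAW at 1 month, 0.18 at 5 days and -0.45 for the change between ages. Signs that turned there were each smaller than the shift of their comparison: with age in wild type Gria1 0.35 and Gria3 0.36; at 1 month Stx1a -0.15, Gria3 -0.11 and Cplx2 -0.21; at 5 days Stx1a 0.01; for the change Stx1a -0.16, Gria2 -0.33 and Cplx2 -0.37. With probe sets averaged, Pclo (-0.22) and Gria1 (0.08) turned in wild type, Gria1 (0.04) and Gphn (0.02) in KPAW, and Stx1a (-0.03) at 1 month. The next probe set turned Syp (-0.21), Pclo (-0.63) and Gria1 (0.23) in wild type, Gria1 (0.28) and Gphn (0.12) in KPAW, Stx1a (-0.15) and Syp (0.25) at 1 month, Syp (-0.03) and Stx1a (0.05) at 5 days, and Stx1a (-0.21) and Syp (0.28) for the change.

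Leaving out each array in turn moved Gria4 from -0.03 to 0.31, Gria3 from -0.19 to 0.13, Syn1 from -0.02 to 0.60, Camk2b from -0.04 to 0.41 and Gria1 from -0.21 to 0.08 with age in wild type, and Cplx2 from -0.25 to 0.44 and Gria2 from -0.20 to 0.44 for the change between ages, and Syp from -0.22 to 0.40, Pclo from -0.23 to 0.10, Gria1 from -0.43 to 0.02, Gphn from -0.36 to 0.21, Syn1 from -0.02 to 0.18, Gria4 from -0.19 to 0.35 and Dlg4 from -0.57 to 0.70 with age in KPAW, and Gphn from -0.02 to 0.55 for KPAW at 5 days, and Gria3 from -0.13 to 0.34, Cplx2 from -0.28 to 0.40, Stx1a from -0.09 to 0.27 and Dlg4 from -1.21 to 0.05 for KPAW at 1 month. The cause of these turns was not tested. The probe set chosen was the same by deposited and by scaled mean for all 26 members. The 2 arrays a group limit the precision.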
